A study of Mus musculus with 10 samples.

Results

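The classical cadherins and the catenins hold epithelial cells together, and 10 of the 50763 genes in the count table encode the members described here. They were chosen by gene symbol, with earlier results of these data known. They comprise 5 cadherins (Cdh1, Cdh2, Cdh3, Cdh4 and Cdh11) and 5 catenins (Ctnnb1, Ctnna1, Ctnna2, Ctnnd1 and Jup). Lens epithelial explants of mice at 3 weeks of age were sequenced in 10 libraries, namely 3 wild-type (WT), 3 OVE853 and 4 OVE918 libraries. All mice were inbred on the FVB/N background and came from several litters, with males and females mixed. The transgene of the OVE853 and OVE918 families encodes human TGF-β1 that leaves the cell in a permanently active form, and the mouse αA-crystallin promoter directs it to lens cells. Each library was a pool of up to 9 WT mice, of up to 18 explants from 9 OVE853 mice, or of up to 14 explants from 7 OVE918 mice, so that p-values measure the spread between pools and not between single animals. The transgenic explants carried an anterior subcapsular plaque and entered the libraries whole. The plaque and the epithelium around it therefore cannot be told apart here, and neither can fewer cells of a type and less RNA per cell.

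Classical cadherins are transmembrane proteins that bind cadherins on the neighbouring cell in the presence of calcium. Inside the cell, β-catenin or plakoglobin binds the cadherin tail and recruits α-catenin, which connects the junction to actin filaments, while p120-catenin binds nearer the membrane and keeps the cadherin at the surface. The lens epithelium carries both E-cadherin and N-cadherin, whereas fiber cells keep mainly N-cadherin, and a shift from E-cadherin to N-cadherin is a familiar feature of epithelial-to-mesenchymal transition.

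Library totals lay between 24073311 and 31908525 counts. Levels are given as CPM, counts divided by the library size after scaling by the trimmed mean of M-values (TMM), and as FPKM, which also divides by the exon length, where genes are compared with each other. Groups were compared with the quasi-likelihood test of edgeR over the 11101 genes that reached 2 FPKM in 5 or more libraries. A gene is said to have risen or fallen where its false discovery rate (FDR, the Benjamini-Hochberg adjusted p-value) was at most 0.05. Tgfb1 had 50.3 to 61.4 CPM in WT, 337 to 360 CPM in OVE853 and 712 to 877 CPM in OVE918, so that every library followed its label. Of 7 lens epithelium markers, all were present in every library and 1 passed, the connexin gene Gja1, which fell from 510 to 569 CPM in WT to 97.5 to 126 CPM in OVE853 and 55.3 to 79.5 CPM in OVE918. Their sum was 153000 to 158000 CPM in WT, 103000 to 118000 CPM in OVE853 and 127000 to 195000 CPM in OVE918, so that OVE853 lay below WT. Most of this sum came from the crystallin genes Cryaa and Cryab, at 116030 and 39723 CPM in WT replicate 1. The transcription factor gene Foxe3 had 422 to 760 CPM in WT, 720 to 832 CPM in OVE853 and 510 to 648 CPM in OVE918. Pax6, of another transcription factor, had 428 to 460 CPM, 433 to 471 CPM and 355 to 400 CPM in the same order. The part of these markers in the results was not tested. WT replicate 3 stood apart in 10 retinal neuron markers, whose summed level was 1010 CPM there and 99.7 and 124 CPM in the other WT libraries. For the members, results that depended on this library are given without it as well.

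Ctnnb1 was the most abundant of the 10 genes per length, and the cadherin transcripts were mostly Cdh1 and Cdh2. In WT, Ctnnb1, which encodes β-catenin, stood at 196 ± 24.7 FPKM (SD, n = 3). Cdh1 followed with 75.1 ± 15.7 FPKM, Cdh2 with 62.9 ± 18.0 FPKM and Ctnna1 with 61.7 ± 4.16 FPKM, and the ranges of these 3 genes overlapped. Below them came Ctnna2 with 37.7 ± 4.36 FPKM, Ctnnd1 with 19.2 ± 2.31 FPKM, Cdh4 with 17.7 ± 3.00 FPKM and Jup with 11.99 ± 3.49 FPKM. Cdh11 with 4.39 ± 1.52 FPKM and Cdh3 with 4.04 ± 0.954 FPKM were the lowest. Within the lower genes, Ctnnd1, Cdh4 and Jup overlapped from each neighbour to the next, as did Cdh11 and Cdh3. In OVE853 and OVE918, Cdh2 stood above Cdh1 in every library. These orders depend on the exon lengths, here those of the Primary transcripts. With exons of all annotated transcripts, WT had 71.7 FPKM of Cdh1 and 25.8 FPKM of Ctnna1 without overlap, Ctnna2 at 14.1 FPKM stood below Ctnnd1 at 17.5 FPKM and Cdh4 at 16.4 FPKM, and Cdh2 was below Cdh1 in OVE918 replicates 2 and 4.

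**Figure D1:**
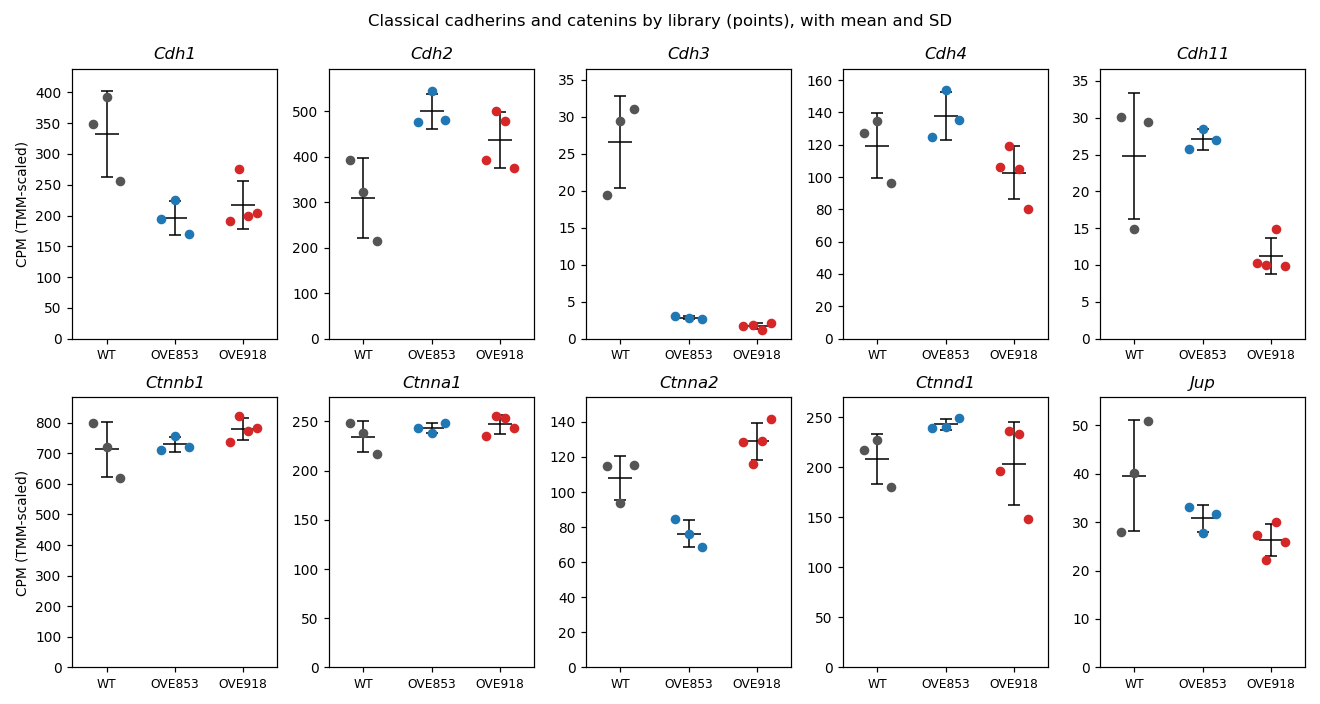
Level of each member in TMM-scaled CPM (vertical axes, each from 0) in WT (n = 3), OVE853 (n = 3) and OVE918 (n = 4). Points are libraries, the long bars are means and the whiskers 1 SD; Cdh3 stood at 19.4 to 31.0 CPM in WT and at 1.2 to 3.0 CPM in the transgenic libraries, while Ctnnb1 and Ctnna1 overlapped between groups.

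Of the 9 members that reached the FPKM minimum, 3 passed the test in OVE853 against WT and 3 in OVE918 against WT. Among all genes tested, 15.8% passed in OVE853 and 19.0% in OVE918. Cdh2 rose and Cdh1 and Ctnna2 fell in OVE853, each by less than 2-fold. Cdh1, Cdh11 and Jup fell in OVE918, and among these 9 Cdh11 was the member whose change exceeded 2-fold. Of all genes tested, 5.60% passed the FDR limit with a change of at least 2-fold there. Between the lines, Cdh11 was lower and Ctnna2 higher in OVE918 than in OVE853, against 1.30% of all genes that passed there. The median log2 fold change of the 9 members was 0.0541 in OVE853 and -0.0323 in OVE918, against -0.0108 and 0.0144 over all genes tested. Without regard to the test, the libraries of OVE853 and WT did not overlap for 4 of the 9 members (45.4% of all genes), those of OVE918 and WT for 2 (27.2%), and those of both lines for 4 (29.5%). Both lines were set against the same WT libraries.

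The tenth member, Cdh3, was above 2 FPKM in the WT libraries only and did not enter that test. It was tested among the 18058 genes that passed edgeR's filterByExpr, which needs a minimum count and no gene length. Cdh3 had at least 33 counts in every library, so that it passed this filter in each group. With this filter, 4 of the 10 members passed in OVE853 and 4 in OVE918, against 13.6% and 16.9% of all genes, and Cdh11 no longer passed between the lines (edgeR FDR = 0.0515).

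**Figure D2:**
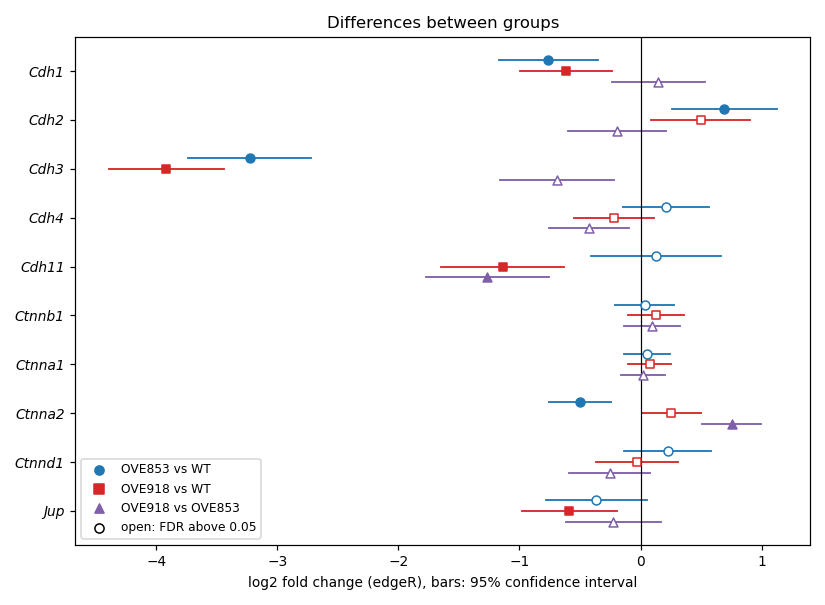
Log2 fold change of each member (horizontal axis) in OVE853 against WT, OVE918 against WT and OVE918 against OVE853, with 95% confidence intervals from edgeR. Filled symbols have an FDR of at most 0.05; the values of Cdh3 come from the filterByExpr set of genes, and Cdh3 lies farthest from 0, at -3.23 and -3.92 in the lines against WT.

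Cdh1 encodes E-cadherin, the cadherin of most epithelia, and lies on chromosome 8 from 107329941 to 107396880 (GRCm39, plus strand). Its levels were 348, 393 and 256 CPM in WT, 194, 226 and 170 CPM in OVE853, and 191, 276, 199 and 204 CPM in OVE918. Every OVE853 library lay below every WT library, while OVE918 replicate 2, at 276 CPM, reached into the WT range. Cdh1 fell by 0.76 on the log2 scale in OVE853 (standard error 0.186, edgeR FDR = 0.0212) and by 0.61 in OVE918 (standard error 0.172, edgeR FDR = 0.0304). These changes correspond to 1.69-fold and 1.53-fold lower levels. The lines themselves differed by a log2 fold change of 0.15 (95% confidence interval -0.236 to 0.531, FDR = 0.620), which did not pass edgeR's test. In OVE853 the call was lost without WT replicate 2 (log2 fold change -0.63, FDR = 0.0656) and without OVE853 replicate 1 (-0.76, FDR = 0.0789) or replicate 3 (-0.67, FDR = 0.0942) in the same edgeR test. In OVE918 it was lost without WT replicate 1 or 2, OVE853 replicate 1, or OVE918 replicate 1, 3 or 4, and in a fit of only these 2 groups, with log2 fold changes between -0.62 and -0.48 and an edgeR FDR of 0.0503 to 0.116. Without WT replicate 3 the log2 fold changes were -0.93 in OVE853 and -0.78 in OVE918 (edgeR FDR = 0.00470 and 0.00592).

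Cdh2 encodes N-cadherin, the cadherin that lens fiber cells and many mesenchymal and neural cells carry. WT libraries had 392, 322 and 216 CPM, OVE853 libraries 476, 544 and 480 CPM, and OVE918 libraries 392, 501, 479 and 376 CPM. All OVE853 libraries lay above the highest WT library, whereas OVE918 replicates 1 and 4 were close to WT replicate 1. In OVE853 Cdh2 rose by a log2 fold change of 0.69 (standard error 0.197, edgeR FDR = 0.0385), a 1.62-fold increase. In OVE918 the log2 fold change was 0.50 (standard error 0.185), and edgeR's FDR of 0.0863 did not pass. The difference between the lines was -0.19 on the log2 scale (95% confidence interval -0.597 to 0.208), so that the data do not separate OVE853 from OVE918 for Cdh2. The OVE853 call was lost in 10 of the 20 alternatives tried, among them leaving out WT replicate 3, which gave a log2 fold change of 0.47 (edgeR FDR = 0.0701). Without WT replicate 2, or without any of the OVE853 replicates or OVE918 replicate 1 or 3, the edgeR FDR lay between 0.0546 and 0.119. The 9 lens fiber markers summed to 15700 to 27600 CPM in WT, 16400 to 24100 CPM in OVE853 and 21100 to 33400 CPM in OVE918 and overlapped between the groups, so that fiber RNA was present in every library.

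The ratio of Cdh2 to Cdh1 differed between WT and both lines without overlap. In FPKM it was 1.01, 0.736 and 0.758 in the WT libraries, 2.21, 2.17 and 2.55 in OVE853, and 1.85, 1.64, 2.16 and 1.66 in OVE918. Every transgenic library thus lay above the highest WT library. The ratio averaged 0.836 ± 0.154 in WT (SD, n = 3), 2.31 ± 0.206 in OVE853 (SD, n = 3) and 1.83 ± 0.244 in OVE918 (SD, n = 4). It is described without a test, and whether it lies above 1 depends on the exon lengths used. With exons of all annotated transcripts in place of the Primary ones, the ratio was 0.438 to 0.602 in WT, 1.29 to 1.51 in OVE853 and 0.972 to 1.29 in OVE918.

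As shares of the summed FPKM of the 5 cadherins, Cdh1 took 45.8 ± 3.29% in WT, 25.8 ± 1.72% in OVE853 and 31.6 ± 2.82% in OVE918. Cdh2 took 38.0 ± 4.40%, 59.3 ± 1.18% and 57.2 ± 2.32% in the same order. The sum itself was 164 ± 33.2 FPKM in WT, 172 ± 15.8 FPKM in OVE853 and 155 ± 21.8 FPKM in OVE918, and its ranges overlapped between all 3 groups. With exons of all transcripts, the shares of Cdh1 were 55.1%, 34.7% and 41.6% and those of Cdh2 27.2%, 47.5% and 44.8%. The make-up of the cadherin transcripts thus differed between WT and the lines at totals whose ranges overlapped.

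**Figure D3:**
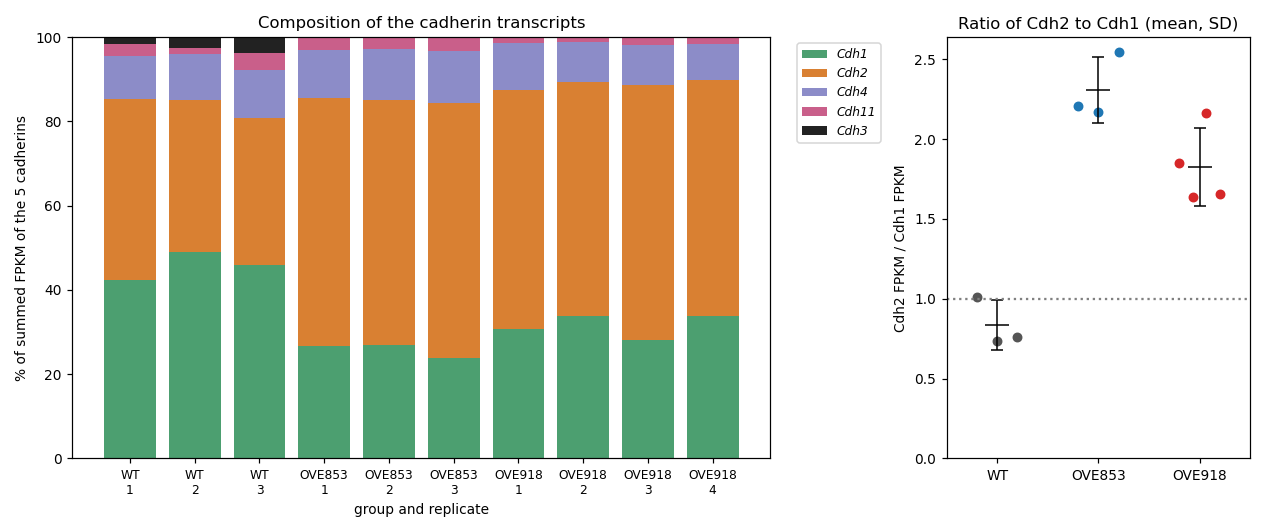
Left, share of each cadherin in the summed FPKM of the 5 cadherins (percent) in each library; right, ratio of Cdh2 to Cdh1 FPKM with mean and SD, the dotted line marking a ratio of 1. Cdh2 takes 34.8% to 43.0% of the WT bars and 55.4% to 60.6% of the transgenic bars, and the ratio of WT libraries ends at 1.01 where that of transgenic libraries begins at 1.64.

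Cdh3 encodes P-cadherin, which in the eye is known from pigmented epithelia and from basal cells of the ocular surface. It lies on chromosome 8 from 107237456 to 107283929 on the plus strand of GRCm39, 46 kb upstream of Cdh1. Its levels were 19.4, 29.4 and 31.0 CPM in WT, 3.0, 2.7 and 2.7 CPM in OVE853, and 1.7, 1.9, 1.2 and 2.1 CPM in OVE918. No library of either line came near the WT range. Among the filterByExpr genes, Cdh3 fell by 3.23 on the log2 scale in OVE853 (standard error 0.230, edgeR FDR = 2.07e-05), which is 9.36-fold, and by 3.92 in OVE918 (standard error 0.216, edgeR FDR = 3.03e-06), which is 15.1-fold. OVE918 was below OVE853 in every library, but the log2 difference of -0.69 (95% confidence interval -1.16 to -0.215, edgeR FDR = 0.148) did not pass. A fall past the FDR limit and 2-fold was seen for 3.72% of these genes in OVE853 and for 5.34% in OVE918. The fall held in all 18 alternatives run for Cdh3 in each line, with log2 fold changes from -3.40 to -3.14 and from -4.14 to -3.78.

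Some markers of tissues near the lens moved in the same direction as Cdh3 and others did not, and their part in its fall was not tested. Markers were tested among the filterByExpr genes, where 13.6% of all genes passed in OVE853 and 16.9% in OVE918. Of 8 photoreceptor markers, 7 were tested, with 0 lower in either line and 1 higher in OVE918. Of 10 retinal neuron markers, 1 fell in OVE853 and 0 in OVE918. Calb2, which the study reports as reduced in both lines, was thus not called in OVE918 among the filterByExpr genes. The 10 summed to 99.7 to 1010 CPM in WT, 25.9 to 75.9 CPM in OVE853 and 29.5 to 164 CPM in OVE918, so that OVE853 lay below WT and OVE918 overlapped with it. The 4 markers of non-pigmented ciliary epithelium (Best2, Wfdc1, Slc6a13 and Optc) all fell in both lines, and their summed level was 589 to 1060 CPM in WT, 205 to 268 CPM in OVE853 and 48.3 to 113 CPM in OVE918. The groups did not overlap in this sum, and OVE918 lay below OVE853, as it did for Cdh3. Each of these ciliary markers is among the genes that the study reports as reduced in both lines. So are Aldh3a1 of the cornea list, Rlbp1 of the Müller glia list and Calb2 of the retinal neuron list. Gene lists were chosen with earlier results of these data known, so falls in these lists were not independent tests. Of the 9 pigmented epithelium markers, 8 were tested and 2 of these (Rpe65 and Ttr) fell in both lines. Rpe65 had 1.3 to 15.2 CPM in WT and 0.037 to 0.85 CPM in the transgenic libraries, and Ttr 7.0 to 50.8 CPM and 0 to 0.59 CPM. The other pigmented epithelium markers that were tested did not pass in either line. The summed level of all 9 ranged from 52.3 to 165 CPM in WT, from 38.4 to 80.7 CPM in OVE853 and from 39.7 to 74.4 CPM in OVE918. These ranges overlapped, and in the transgenic libraries most of the sum came from Tyrp1, Dct and Pmel. The 6 cornea markers summed to 2620 to 4290 CPM in WT, 2110 to 2280 CPM in OVE853 and 1770 to 2040 CPM in OVE918, without overlap of WT with either line. Of the 3 that were tested, 2 fell in OVE853 and 3 in OVE918. Most of the sum came from the metabolic gene Tkt, while Aldh3a1, the gene of a corneal aldehyde dehydrogenase, fell from 235 to 1604 CPM in WT to 62.3 to 91.9 CPM in OVE853 and 26.2 to 80.1 CPM in OVE918. The corneal keratin gene Krt12 was at 0.65 to 4.9 CPM in WT and at 0 in the 7 transgenic libraries, and Kera was at 0 in every library. E-cadherin is known from corneal epithelium too, and the part of the cornea markers in the fall of Cdh3 and of Cdh1 was not tested. Of the 4 Müller glia markers, 3 fell in both lines. All 4 summed to 426, 432 and 1420 CPM in WT replicates 1, 2 and 3, to 213 to 234 CPM in OVE853 and to 116 to 199 CPM in OVE918. When WT replicate 3 was left out, the log2 fold change of Cdh3 was -3.15 in OVE853 and -3.82 in OVE918.

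**Figure D4:**
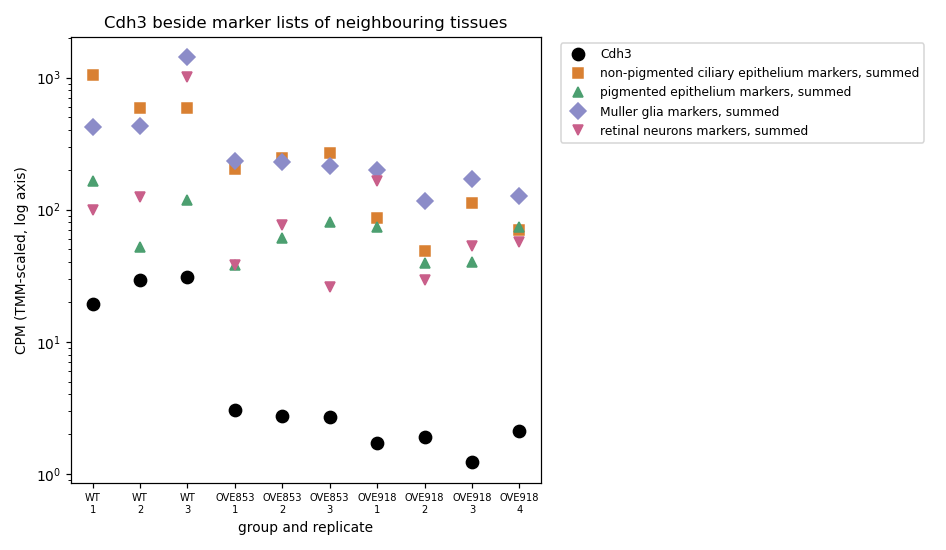
Cdh3 and the summed levels of 4 marker lists in each library, in TMM-scaled CPM on a log axis. Cdh3 falls from 19.4 to 31.0 CPM in WT to 1.2 to 3.0 CPM in the lines, and the ciliary epithelium markers from 589 to 1060 CPM in WT to 48.3 to 268 CPM. The summed pigmented epithelium markers overlap between the groups, although Rpe65 and Ttr among them fell in both lines.

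Cdh4 encodes R-cadherin, known from the retina and other neural tissue. Its levels were 127, 135 and 96.5 CPM in WT, 125, 154 and 135 CPM in OVE853, and 106, 119, 105 and 80.1 CPM in OVE918. Of the 7 transgenic libraries, 4 lay within the WT range. Cdh4 did not pass in either line (log2 fold change 0.21 with an edgeR FDR of 0.380 in OVE853, -0.22 with an edgeR FDR of 0.348 in OVE918). The lines did not overlap with each other, yet their log2 difference of -0.43 (95% confidence interval -0.757 to -0.0957) had an edgeR FDR of 0.140.

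Cdh11 encodes cadherin-11, the cadherin of osteoblasts and many mesenchymal cells, and lies on chromosome 8 from 103358726 to 103512687 on the minus strand of GRCm39. WT libraries had 30.1, 14.9 and 29.4 CPM, OVE853 libraries 25.7, 28.5 and 27.0 CPM, and OVE918 libraries 10.3, 10.0, 14.9 and 9.8 CPM. WT replicate 2 and OVE918 replicate 3 were thus at nearly the same level, and the other OVE918 libraries lay well below the other libraries of WT and OVE853. Cdh11 fell by 1.14 on the log2 scale in OVE918 (standard error 0.230, edgeR FDR = 0.00597), a 2.20-fold decrease, while the log2 fold change in OVE853 was 0.13 (95% confidence interval -0.412 to 0.663, edgeR FDR = 0.738). Compared directly, OVE918 lay 2.40-fold below OVE853 (log2 fold change -1.27, standard error 0.229, edgeR FDR = 0.0376). The fall in OVE918 was not called by limma-voom with sample weights (log2 fold change -0.52, FDR = 0.116), which instead called Cdh11 higher in OVE853 (0.60, FDR = 0.0299). The difference between the lines was lost when any 1 of the OVE853 libraries or OVE918 replicate 1 or 4 was left out (log2 fold changes -1.30 to -1.21, edgeR FDR 0.0819 to 0.169). The 5 markers of fibroblasts and mural cells, cells in which cadherin-11 is common, summed to 356 to 566 CPM in WT, 689 to 716 CPM in OVE853 and 421 to 612 CPM in OVE918, so that OVE853 lay above WT and OVE918 overlapped with it. Of these markers, 4 were tested among the filterByExpr genes and 0 passed in either line, where 13.6% (OVE853) and 16.9% (OVE918) of all genes passed. The part of these markers in the level of Cdh11 was not tested.

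Among the catenins, Ctnnb1 and Ctnna1, whose products connect the junction to actin in most epithelia, did not pass the test in either line (edgeR FDR = 0.854 and 0.432 for Ctnnb1, 0.685 and 0.563 for Ctnna1). Ctnnb1 had 798, 721 and 619 CPM in WT, 712, 756 and 720 CPM in OVE853, and 736, 822, 774 and 782 CPM in OVE918. Its log2 fold change was 0.03 in OVE853 (95% confidence interval -0.211 to 0.277) and 0.13 in OVE918 (95% confidence interval -0.101 to 0.356). Ctnna1, which encodes αE-catenin, had 217 to 248 CPM in WT, 238 to 249 CPM in OVE853 and 235 to 256 CPM in OVE918. Its log2 fold change was 0.05 in OVE853 (95% confidence interval -0.137 to 0.246) and 0.08 in OVE918 (95% confidence interval -0.104 to 0.255). The groups overlapped for both genes, and the widest of these limits lay at -0.211 and 0.356 on the log2 scale.

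Ctnna2 encodes αN-catenin, the α-catenin best known from neurons, and lies on chromosome 6 from 76858342 to 77956718 on the minus strand of GRCm39. Its levels were 115, 93.5 and 115 CPM in WT, 84.6, 75.8 and 68.7 CPM in OVE853, and 129, 116, 129 and 142 CPM in OVE918. The lines thus lay on opposite sides of WT, with OVE918 replicate 2 only just above the highest WT library. Ctnna2 fell by 0.50 on the log2 scale in OVE853 (standard error 0.117, edgeR FDR = 0.0173). In OVE918 the log2 fold change was 0.26 and its edgeR FDR of 0.130 did not pass. Tested directly, Ctnna2 was 1.69-fold higher in OVE918 than in OVE853 (log2 fold change 0.75, standard error 0.111, edgeR FDR = 0.0184). Only 0.369% of all genes were called higher in OVE918 than in OVE853. Without OVE853 replicate 2 or 3 the edgeR FDR against WT was 0.0625 and 0.0829, and the difference between the lines was lost when any 1 of the OVE853 libraries or OVE918 replicate 1 was left out (log2 fold changes 0.69 to 0.84, edgeR FDR 0.0522 to 0.137). The 10 retinal neuron markers summed to 99.7 to 1010 CPM in WT, 25.9 to 75.9 CPM in OVE853 and 29.5 to 164 CPM in OVE918. In this sum every OVE853 library lay below every WT library, while OVE918 overlapped with both. The part of these markers in the level of Ctnna2 was not tested. Without WT replicate 3 the log2 fold change of Ctnna2 in OVE853 was -0.46 (edgeR FDR = 0.0408).

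Ctnnd1, which encodes p120-catenin, had 180 to 228 CPM in WT, 240 to 250 CPM in OVE853 and 148 to 237 CPM in OVE918. OVE853 lay above WT in every library, and the log2 fold change of 0.22 (95% confidence interval -0.139 to 0.586, edgeR FDR = 0.358) did not pass. In OVE918 it was -0.03 (95% confidence interval -0.371 to 0.307). Jup encodes plakoglobin, which serves both adherens junctions and desmosomes. It had 27.9, 40.0 and 50.9 CPM in WT, 33.0, 27.7 and 31.6 CPM in OVE853, and 27.3, 22.2, 29.96 and 25.9 CPM in OVE918. WT replicate 1 lay among the transgenic libraries, of which 4 were below it, and WT replicates 2 and 3 lay above all of them. Jup fell by 0.59 on the log2 scale in OVE918 (standard error 0.177, edgeR FDR = 0.0406), and without WT replicate 3 the log2 fold change was -0.38 (edgeR FDR = 0.150). The call was also lost when WT replicate 2 or any 1 of the transgenic libraries was left out. In OVE853 the log2 fold change was -0.36 (edgeR FDR = 0.201), and it passed without WT replicate 1 (-0.56, FDR = 0.0256).

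Summed over the 5 catenins, FPKM was 326 ± 26.9 in WT, 323 ± 4.20 in OVE853 and 351 ± 11.4 in OVE918. Ctnnb1 took 59.8 ± 2.76% of it in WT, 62.0 ± 1.29% in OVE853 and 61.0 ± 1.13% in OVE918. Jup, the other catenin that binds the same part of the cadherin tail, took 3.75 ± 1.38%, 2.89 ± 0.294% and 2.28 ± 0.313%. Ctnna2 took 11.6 ± 1.74%, 8.26 ± 0.862% and 12.9 ± 1.27%. With exons of all transcripts, the sums were 149, 150 and 159 FPKM and the shares of Ctnnb1 58.4%, 59.6% and 59.8%, whereas that of Ctnnd1 in WT was 11.7% in place of 5.89%.

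The proteins that surround the cadherin-catenin complex were followed in 9 further gene lists. Of 29 adherens junction partners, 26 were tested, with 4 higher and 2 lower in OVE853 and 1 higher and 5 lower in OVE918 (15.8% and 19.0% of all genes passed). Plekha7, which ties p120-catenin to microtubules at the junction, was the partner with the largest change. It had 51.9, 52.5 and 60.5 CPM in WT, 26.0, 26.9 and 28.5 CPM in OVE853, and 21.3, 18.2, 21.5 and 18.3 CPM in OVE918. The groups were far apart, and Plekha7 fell by 1.02 on the log2 scale in OVE853 (standard error 0.105, edgeR FDR = 1.54e-04) and by 1.47 in OVE918 (standard error 0.0976, edgeR FDR = 5.25e-06). The remaining partners that passed are named here after their values were seen. Nectin2, an immunoglobulin-like adhesion molecule of the junction, rose in OVE853 (0.71) and in OVE918 (0.47 on the log2 scale). Afdn (0.56), which binds nectins to actin, Vcl (0.46), the gene of vinculin, and Ptprf (0.63), a receptor phosphatase, rose in OVE853, and Evl (-0.50) fell. In OVE918 Ptprk (-0.70), Wtip (-0.45), Camsap3 (-0.43), which anchors microtubules beside PLEKHA7, and Actn4 (-0.34) fell. The median log2 fold change of the list was 0.0573 in OVE853 and -0.105 in OVE918. Leaving out single libraries gave 2 to 10 partners in OVE853, with 10 without WT replicate 1, 3 without WT replicate 2 or 3 or OVE853 replicate 1 or 2, and 2 without OVE853 replicate 3. In OVE918 it gave 6 to 12, with 12 without WT replicate 1 and 6 without WT replicate 3.

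Of 6 other members of the catenin family, 5 were tested and 2 fell in each line, where 15.8% (OVE853) and 19.0% (OVE918) of all genes passed. Pkp4, the gene of plakophilin-4, had 241, 176 and 191 CPM in WT, 127 to 146 CPM in OVE853 and 126 to 133 CPM in OVE918, without overlap of either line with WT. It fell by 0.56 on the log2 scale in OVE853 (edgeR FDR = 0.0106) and by 0.63 in OVE918 (edgeR FDR = 0.00216). Ctnnd2, of δ-catenin, fell by 0.45 in OVE853, and Ctnnbip1, an inhibitor of the binding of β-catenin to TCF factors, fell by 0.54 in OVE918. The median log2 fold change was -0.321 in OVE853 and -0.340 in OVE918.

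Of 24 genes of cadherin shedding and turnover, 20 were tested. Dab2, the gene of an endocytic adaptor, had 5.0, 5.2 and 4.8 CPM in WT, 15.7, 17.2 and 16.9 CPM in OVE853, and 15.2, 16.8, 16.01 and 10.5 CPM in OVE918. Every transgenic library was above WT, and Dab2 rose by a log2 fold change of 1.72 in OVE853 (edgeR FDR = 1.09e-04) and of 1.54 in OVE918 (edgeR FDR = 8.39e-05). Adam10, the main sheddase of E-cadherin and N-cadherin, rose by 0.48 in OVE853 and 0.46 in OVE918. Among the filterByExpr genes its rise in OVE853 was lost (0.49, edgeR FDR = 0.0505). Src (-0.67 and -0.79), Fyn (-0.38 and -0.53) and Psen2 (-0.53 and -0.66), genes of 2 kinases and of a γ-secretase subunit, fell in both lines. Adam9 and Rab11a rose in OVE918. In all, 2 genes rose and 3 fell in OVE853, and 4 rose and 3 fell in OVE918, against 15.8% and 19.0% of all genes, with medians of 0.0452 and 0.0162. Without WT replicate 1, 9 of these genes passed in OVE853, without WT replicate 2 there were 3, and without WT replicate 3, any 1 of the OVE853 libraries or OVE918 replicate 3 there were 2. In OVE918 5 to 9 passed when single libraries were left out.

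For the nuclear role of β-catenin, 13 target genes of Wnt signalling were followed, of which 5 reached the FPKM minimum. Notum, a secreted Wnt deacylase, had 37.6, 16.7 and 21.2 CPM in WT, 7.9, 4.3 and 7.3 CPM in OVE853, and 3.3, 3.0, 4.0 and 3.4 CPM in OVE918. It fell by 1.95 on the log2 scale in OVE853 (edgeR FDR = 0.00215) and by 2.87 in OVE918 (edgeR FDR = 7.82e-05), without overlap. Axin2, a target that also belongs to the destruction complex of β-catenin, had 24.3, 31.0 and 32.03 CPM in WT, 15.9 to 18.1 CPM in OVE853 and 12.4 to 17.6 CPM in OVE918. It fell by 0.79 and by 0.92 on the log2 scale. These were the 2 targets that passed in each line, against 15.8% of all genes tested in OVE853 and 19.0% in OVE918. Among the filterByExpr genes 12 targets were tested, and there Dkk1 and Lef1 rose in both lines while Apcdd1 fell with Axin2 and Notum, and Rnf43 fell in OVE918. Of all filterByExpr genes, 13.6% passed in OVE853 and 16.9% in OVE918. Genes of this list thus changed in both directions, and the median log2 fold change of the 5 targets at the FPKM minimum was -0.213 in OVE853 and -0.540 in OVE918. Of the 10 genes of the destruction complex, 9 were tested. Axin2 was the gene that fell in OVE853, and Axin2 and Btrc (-0.43) fell in OVE918, at list medians of -0.0496 and -0.158. Here too the shares of all genes that passed were 15.8% and 19.0%.

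The transcription factors known to repress Cdh1 were mostly low. Of 11 genes, 4 were tested, and Tcf3, of the E-protein E47, rose by a log2 fold change of 0.44 in OVE853 (edgeR FDR = 0.0297). Of all genes tested, 15.8% passed in OVE853 and 19.0% in OVE918. The 4 genes had a median log2 fold change of 0.412 in OVE853 and 0.233 in OVE918. Zeb1 had 30.8 to 37.6 CPM in WT, 42.0 to 47.4 CPM in OVE853 and 34.9 to 50.1 CPM in OVE918, and its log2 fold changes, 0.39 and 0.38, missed the FDR limit (edgeR FDR = 0.0737 and 0.0590). In OVE918, edgeR called 0 of the 4, DESeq2 3 and limma-voom 2, and 3 had an unadjusted p under 0.05 in edgeR. Snai1 stayed between 1.1 and 4.2 CPM and Snai2 between 0.15 and 1.1 CPM in every library, and missed the FPKM minimum. Of 9 regulators of the epithelial state, Klf4 alone reached the FPKM minimum, at log2 fold changes of 0.54 and 0.77 (edgeR FDR = 0.468 and 0.295). Among the filterByExpr genes 4 were tested, and Klf5, of an epithelial Krüppel-like factor, passed as higher in OVE918 (edgeR FDR = 0.00476) at 0.038 to 0.10 CPM in WT and 0.30 to 1.6 CPM in OVE918. Of all filterByExpr genes, 16.9% passed in OVE918.

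Of 16 desmosome genes, 4 were tested, which leaves most of the list at low levels in these explants. Of all genes tested, 15.8% passed in OVE853 and 19.0% in OVE918. Pkp2, of plakophilin-2, fell by 0.40 on the log2 scale in OVE853 (edgeR FDR = 0.0499), with 45.0, 42.1 and 31.8 CPM in WT and 28.5 to 30.9 CPM in OVE853. This call was lost among the filterByExpr genes (edgeR FDR = 0.0674), and edgeR called 0 of the 4 when WT replicate 2, any 1 of the OVE853 libraries or OVE918 replicate 1, 2 or 3 was left out. In OVE918 edgeR called 0 of the 4, DESeq2 0 and limma-voom 1, with 2 at an unadjusted p under 0.05 in edgeR. The list medians were 0.00406 and 0.282. Among the filterByExpr genes, Dsp, of desmoplakin, was at 0.19 to 0.27 CPM in WT, 1.2 to 2.0 CPM in OVE853 and 1.3 to 2.9 CPM in OVE918, and it passed as higher in both lines (edgeR FDR = 0.00371 and 8.59e-04). Evpl, of envoplakin, fell in both lines by 1.28 and 1.95 on the log2 scale. Of all filterByExpr genes, 13.6% passed in OVE853 and 16.9% in OVE918.

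Of 18 further cadherins, Cdh18 and Cdh22 reached the FPKM minimum. Cdh22 had 13.1, 18.4 and 21.9 CPM in WT, 9.0 to 14.6 CPM in OVE853 and 4.0 to 8.6 CPM in OVE918, and fell by 1.40 on the log2 scale in OVE918 (standard error 0.261, edgeR FDR = 0.00377). Among the filterByExpr genes 14 were tested, with 1 higher and 4 lower in OVE853 and 3 higher and 5 lower in OVE918, against 13.6% and 16.9% of all these genes, at medians of -0.378 and -0.799. Cdh20, Cdh6, Cdh8 and Cdh9 fell in both lines, and Cdh20 among them had 6.8 to 15.2 CPM in WT and 1.2 to 5.7 CPM in the transgenic libraries. WT replicate 3 stood apart for Cdh8, with 1.3, 1.3 and 9.0 CPM in WT, and for Cdh9, with 1.0, 1.0 and 3.4 CPM. The transgenic libraries had 0.14 to 0.90 CPM of Cdh8 and 0.11 to 0.51 CPM of Cdh9. No fold change without WT replicate 3 is given for these genes. Cdh5, the cadherin of endothelium, had 0.28 to 1.7 CPM in WT, 4.2 to 7.2 CPM in OVE853 and 3.4 to 4.3 CPM in OVE918, and it rose in both lines by log2 fold changes of 2.24 and 1.76. The 7 endothelial markers, Cdh5 among them, summed to 55.8 to 139 CPM in WT, 42.1 to 57.1 CPM in OVE853 and 48.4 to 68.4 CPM in OVE918. Most of this sum came from Kdr and Egfl7, which did not pass in either line. By gene, 1 of the 7 (Cdh5) passed as higher in OVE853 and 4 (Cdh5, Pecam1, Tie1 and Cldn5) in OVE918, and their part in the rise of Cdh5 was not tested.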

How the data were processed

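The authors deposited raw counts of read pairs per gene for 10 libraries, without normalization. Per the study's methods and the submitters' processing notes, reads were trimmed with Cutadapt 5.2, aligned to GRCm39 with STAR 2.7.11b and counted on RefSeq exons with featureCounts 2.0.8 in reverse-stranded mode, and the authors tested with edgeR 4.6.3. Here, edgeR 4.0.16 in R 4.3.3 was used with TMM factors (0.881 to 1.11), robust dispersions and 3 groups fitted together, after the design in the study's methods. Genes needed at least 2 FPKM in 5 of 10 libraries, taking exon lengths from the Primary transcripts of GENCODE vM39 (43289 genes had a length). CPM used the same scaling. Alternatives comprised DESeq2 1.42.0, limma 3.58.1 voom, upper-quartile factors, other filters, other sample sets, bias-adjusted deviances and leaving out each library. The filterByExpr fits of Cdh3 under each alternative and the bias-adjusted deviances were chosen after seeing the data. The steps were tested on simulated counts. The members, gene lists and tests were chosen with earlier results of these data known. All members are named. From each other list, the genes past FDR and 2-fold were named, at most 4, or else at most 2 past the FDR, and all further genes were named after their values were seen. Between library pairs of a group, chi-square per degree of freedom was 12.8 to 129, so that no library looked like a copy of another. Depth limits precision at low counts, and the 33 to 888 counts of Cdh3 carry the largest counting error among the members.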

Additional observations from a re-analysis of the deposited data

Results flagged for a closer look

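Cdh1 in OVE918 had 1 library apart from the rest of its group. Replicate 2 stood at 276 CPM and the other 3 between 191 and 204 CPM, so that the gap took 0.848 of the range of the group. The same was seen for Cdh11 in OVE918, where replicate 3 stood at 14.9 CPM and the other 3 between 9.8 and 10.3 CPM, a gap of 0.912 of the range. Chance alone sets a library apart like this in about 1 in 20 groups, and OVE918 was the group of 4 libraries in which each of the 10 members was checked.

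Cdh11 and Ctnna2 passed the test of the difference between the 2 transgenic lines in the main fit. The log2 fold change of OVE918 over OVE853 was -1.27 for Cdh11 (edgeR FDR = 0.0376) and 0.75 for Ctnna2 (edgeR FDR = 0.0184). All 4 OVE918 libraries lay below all 3 OVE853 libraries for Cdh11 and above them for Ctnna2, and 29.5% of all genes did not overlap between the lines. Both calls were lost when any 1 of the OVE853 libraries was left out. That of Cdh11 was also lost in edgeR with filterByExpr (FDR = 0.0515) and with the replicate block (FDR = 0.102).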

How the results depend on the processing

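Of 594 alternative values of the members, 533 kept their direction and side of the threshold, 46 lost a call, 7 gained it and 8 changed sign, all 8 in members that had not passed. For counts of members, filterByExpr and no filter added Cdh3, giving 1 and 1 past FDR and 2-fold in OVE853 in place of 0 and 2 and 2 in OVE918 in place of 1, where voom gave 0. Fitting only the groups compared left 1 member past the FDR in OVE918. Between the lines, filterByExpr gave 1 past the FDR and 0 with 2-fold. Without each library, the counts ranged from 0 to 4 (OVE853), 1 to 3 (OVE918) and 0 to 2 (between the lines) at the FDR, and from 0 to 0, 0 to 1 and 0 to 1 with 2-fold. Of the other lists, voom called 10 and 13 junction partners (OVE853 and OVE918) in place of 6 and 6, 10 shedding and turnover genes in OVE853 in place of 5, and 3 destruction complex genes and 4 Cdh1 repressors there in place of 1 and 1, and DESeq2 called 10 partners in OVE918. With no filter, 3 shedding and turnover genes passed in OVE853, and 5 and 7 β-catenin targets passed in place of 2 and 2. The sign of Ctnnb1 in OVE853 turned under voom (-0.00119) and that of Ctnnd1 in OVE918 with upper-quartile factors (0.00105). Without each library, log2 fold changes in OVE853 ranged from -0.142 to 0.284 for Cdh11, from -0.0757 to 0.121 for Ctnnb1 and from -0.0147 to 0.0953 for Ctnna1, and in OVE918 from -0.139 to 0.0941 for Ctnnd1. The cause was not tested. Replicate numbers did not pair the samples: 0 of 9 same-numbered pairs had a correlation over 0.1 (-0.304 to 0.0836). With the replicate block, 1 member passed between the lines and 0 with 2-fold, Ctnnd1 in OVE918 turned to 0.0935, and Cdh2 in OVE853 (FDR = 0.0509) and Jup in OVE918 (FDR = 0.0799) were lost in edgeR's test with Benjamini-Hochberg adjustment.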

Other observations

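Across the 10 libraries, the tested genes whose log2 CPM followed Cdh1 most closely were Snap23 (Pearson r = 0.951), Gstm7 (r = 0.944) and Acadm (r = 0.930). Those that followed Cdh2 most closely were Reep3 (r = 0.992), Plekhg1 (r = 0.990) and Sema5a (r = 0.987). They are the 3 highest of 11101 genes for each, over libraries that fall into 3 groups, and are given as a description only.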
